A study of Mus musculus with 8 samples.

Results

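Expression of 10 genes of the insulin-like growth factor (IGF) system was examined in whole mouse kidney with and without a nephron deletion of Cox10. The genes are the ligand Igf1, its receptor Igf1r, the binding proteins Igfbp1 to Igfbp7 and the protease Pappa2, and they are 10 of the 47643 genes in the count data. They were chosen by family, with the wild-type against mutant differences of these same libraries already known, so those differences are given below as a description. All 10 were found by symbol, and all 10 passed the filter on low counts.

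The data were polyadenylated RNA sequencing libraries from 8 kidneys, 4 labelled wild type (WT 1 to WT 4) and 4 labelled cKO (cKO 1 to cKO 4) with the genotype Six2-Cre;Cox10-fl/fl. Mice were 3 months old, except replicate 2 of each group, which was 2.5 months old. Cox10 encodes heme A farnesyltransferase, which is needed to build mitochondrial cytochrome c oxidase. Six2-Cre acts in the nephron progenitors of the developing kidney, so podocytes and tubules up to the connecting segment descend from cells with Cre, while collecting duct, vessels, fibroblasts and blood cells do not. The labels do not say whether the wild-type mice carried Cre or a floxed allele, and they give neither sex nor litter. Nothing in the labels ties the libraries to separate litters or days. The headers of the count data do carry a number for each library. These numbers are consecutive for all libraries but WT 4 and cKO 4, which lie together in a later run. What the numbers stand for is not stated, and whether they mark a batch was not tested. The p-values therefore measure the spread between these kidneys only.

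IGF1 and IGF2 act through the IGF1 receptor, a tyrosine kinase that signals to PI3K, AKT and mTOR and to the MAP kinases. In blood and tissue fluid most IGF is held by binding proteins, which lengthen its life and control its access to the receptor. Proteases free it again. PAPP-A2, the product of Pappa2, cleaves IGFBP3 and IGFBP5, and its relative PAPP-A cleaves IGFBP4 and IGFBP5. In kidney, Pappa2 is known for expression in the thick ascending limb and macula densa.

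Values below are CPM, a gene's counts relative to its library's total, with totals adjusted for composition by edgeR's TMM method. A gene is said to have risen or fallen where edgeR's quasi-likelihood test gave a Benjamini-Hochberg adjusted p under 0.05 over the 13829 genes tested. Of those genes, 16.7% passed, 9.57% higher and 7.14% lower in cKO (1323 and 987 genes; 1866 and 550 when scaled by library size alone). Of the 10 members, 5 passed, 3 higher (Igfbp2, Igfbp6 and Pappa2) and 2 lower (Igfbp3 and Igfbp5). The CPM of the 4 cKO libraries lay wholly outside that of the 4 WT libraries for 6 of the 10, against 22.6% of all genes tested. Because the members were picked with this contrast in view, nothing is read from these counts.

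Total expected counts ran from 9454830 (cKO 2) to 15838026 (WT 4) per library. After scaling, 3 counts correspond to 0.326 CPM in cKO 2 and to 0.344 CPM in WT 2. Cox10 itself was at 24.6, 19.6, 19.2 and 20.4 CPM in WT 1 to WT 4 and at 19.5, 10.9, 20.8 and 22.3 CPM in cKO 1 to cKO 4 (adjusted p = 0.619). Counts over the whole gene take in reads outside any deleted exon, so this does not check the genotype labels, and the groups are used as labelled. Reads from Y-linked genes were present in WT 2, WT 3, WT 4 and cKO 3 and absent (fewer than 10 counts) from WT 1, cKO 1, cKO 2 and cKO 4, so sex was unbalanced over the genotypes. WT 3 and WT 4 stood apart by gene length. Relative to the mean of the 8 libraries, genes with under 1 kb of exon had a median log2 deviation of -0.73 in WT 3 and -0.42 in WT 4, and genes with over 16 kb of exon one of 0.78 and 0.51. In cKO 2 the slope ran the other way, from 0.68 to -0.31. The part of this slope in each result was not tested, and each member is given without WT 3 and WT 4, and after a correction for length within each library. Among all genes, 4.09% passed without WT 3 and WT 4 and 19.3% passed with the length correction.

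**Figure D1:**
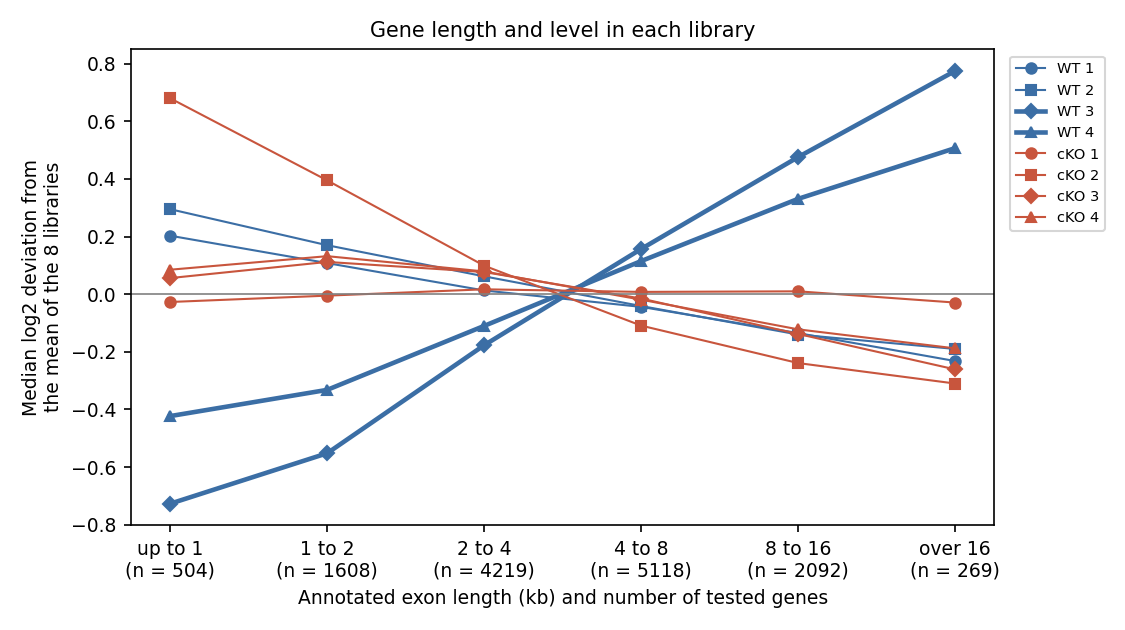
Median log2 deviation of each library from the mean of the 8 libraries (vertical axis) for tested genes in 6 classes of exon length in kb (horizontal axis), 1 line per library. WT 3 and WT 4 climb from -0.73 and -0.42 in the shortest class to 0.78 and 0.51 in the longest, and cKO 2 falls from 0.68 to -0.31.

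The ligand did not pass the test. Igf1 (chr10:87858265-87937042, mm10, plus strand), made mainly by liver under growth hormone and at lower levels in many tissues, was at 12.6, 5.97, 9.31 and 5.50 CPM in WT 1 to WT 4. It was at 8.73, 11.4, 9.46 and 8.23 CPM in cKO 1 to cKO 4. The groups overlapped fully, with the highest and lowest libraries both WT. The log2 fold change, cKO over WT, was 0.18 ± 0.29 (SE, n = 4 per group; edgeR adjusted p = 0.700), with a 95% interval from -0.46 to 0.81. It was 0.03 without WT 3 and WT 4 and 0.40 with the length correction.

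Igf1r (chr7:67952827-68233668, plus strand), the receptor, was at 41.8, 59.5, 175.5 and 147.9 CPM in WT 1 to WT 4 and at 56.8, 30.7, 44.1 and 66.7 CPM in cKO 1 to cKO 4. WT 3 and WT 4 were far above every other library, while WT 1 and WT 2 lay among the cKO values. The mean was 106 ± 65.5 CPM in WT and 49.6 ± 15.6 CPM in cKO (SD, n = 4 each), and the log2 fold change was -1.10 ± 0.43 (SE; edgeR adjusted p = 0.098). Igf1r has 16.8 kb of exon, the longest of the 10, and the high libraries are those in which long genes were high. Without WT 3 and WT 4 its log2 fold change was -0.01 (edgeR adjusted p = 0.995), and with the length correction it was -0.57 (adjusted p = 0.186). DESeq2 gave an adjusted p of 0.0493, and edgeR without WT 1 gave 0.0229.

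The binding proteins moved in both directions. Igfbp3 and Igfbp5 were lower in every cKO library than in any WT library, and Igfbp2 and Igfbp6 were higher. Igfbp1, Igfbp4 and Igfbp7 did not pass the test. In whole kidney, fewer cells of a type and less RNA per cell cannot be told apart.

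Igfbp3 (chr11:7206086-7213923, minus strand) encodes the main carrier of IGF in blood, where it forms a complex with the acid-labile subunit. It was at 189.4, 182.9, 214.8 and 152.9 CPM in WT 1 to WT 4. In cKO 1 to cKO 4 it was at 13.1, 17.3, 15.7 and 18.9 CPM. Both groups were tight and lay far apart, and the lowest WT library exceeded the highest cKO library. The mean fell from 185.0 ± 25.4 to 16.3 ± 2.47 CPM (SD, n = 4 each). This was -3.51 ± 0.22 in log2 fold change (SE; edgeR adjusted p = 1.85e-05). It was -3.50 without WT 3 and WT 4 and -3.62 with the length correction.

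Igfbp5 (chr1:72857932-72874884, minus strand) encodes a binding protein with affinity for extracellular matrix. It was at 303, 255, 562.7 and 324.4 CPM in WT 1 to WT 4, with WT 3 the highest. In cKO 1 to cKO 4 it was at 100.6, 32.2, 103.6 and 65.7 CPM, with the younger cKO 2 the lowest. The groups did not overlap. The mean fell from 361 ± 137 to 75.5 ± 33.6 CPM (SD, n = 4 each). The difference was -2.26 ± 0.39 in log2 units (SE; edgeR adjusted p = 0.00322). Without WT 3 and WT 4 it was -1.87, and with the length correction -2.14.

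Igfbp2 (chr1:72824503-72852474, plus strand) encodes a binding protein abundant in fetal tissues that also carries an integrin-binding motif. It was at 2.93, 6.66, 1.31 and 0.388 CPM in WT 1 to WT 4 and at 21.7, 37.4, 49.0 and 41.7 CPM in cKO 1 to cKO 4. The lowest cKO library was above the highest WT library, WT 2. Mean values were 2.82 ± 2.77 CPM in WT and 37.5 ± 11.5 CPM in cKO (SD, n = 4 each). The log2 fold change was 3.79 ± 0.65 (SE; edgeR adjusted p = 0.00419), and 3.66 with the length correction. It was 3.01 without WT 3 and WT 4, the libraries with the lowest Igfbp2, and 4.63 without WT 2, the WT library with the highest.

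Igfbp6 (chr15:102144362-102149511, plus strand), whose product prefers IGF2 over IGF1, was the rarest binding protein transcript in WT kidney. WT 1 to WT 4 gave 11, 2, 1 and 5 counts, or 0.949, 0.230, 0.0817 and 0.323 CPM. From cKO 1 to cKO 4 came 18, 83, 30 and 99 counts, or 1.10, 9.03, 2.13 and 6.46 CPM. The groups met closely, with cKO 1 just above WT 1, and the cKO libraries spread widely. The log2 fold change was 3.51 ± 0.77 (SE; edgeR adjusted p = 0.0117). It no longer passed without WT 3 and WT 4 (2.91, adjusted p = 0.138), without WT 4 and cKO 4 (3.17, adjusted p = 0.109) or without the 2.5-month pair (2.85, adjusted p = 0.0715). It was 3.15 with the length correction and 4.35 without WT 1.

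Igfbp4 (chr11:99041244-99054392, plus strand), a binding protein that inhibits IGF action and is cleaved by PAPP-A, was abundant in both groups. It was at 790.2, 1040, 791.9 and 901.2 CPM in WT 1 to WT 4 and at 687.6, 485.7, 724.8 and 665.0 CPM in cKO 1 to cKO 4. The groups did not overlap, but the gene did not pass the test, at a log2 difference of -0.46 ± 0.25 (SE, n = 4 per group; edgeR adjusted p = 0.214) and a 95% interval that ended at 0.08. It was -0.49 without WT 3 and WT 4 and -0.47 with the length correction. Igfbp1 (chr11:7197782-7202546, plus strand), a binding protein known in liver for its response to insulin and fasting, was at 17.5, 17.5, 2.61 and 7.11 CPM in WT 1 to WT 4. It was at 10.4, 9.14, 6.97 and 2.22 CPM in cKO 1 to cKO 4. Its groups overlapped, and its log2 fold change was -0.63 ± 0.57 (SE; edgeR adjusted p = 0.469). Without WT 3 and WT 4 it was -1.26 (edgeR adjusted p = 0.176), and with the length correction -0.76.

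Igfbp7 (chr5:77349240-77408041, minus strand) encodes a relative with low affinity for IGF, a secreted matrix protein whose urinary level is used as a marker of kidney stress. It was at 1360, 1131, 794.7 and 867.1 CPM in WT 1 to WT 4 and at 1338, 1286, 1412 and 1753 CPM in cKO 1 to cKO 4. WT 1 lay among the cKO values, and the low WT libraries were WT 3 and WT 4, in which short genes were low (Igfbp7 has 1.21 kb of exon). The log2 fold change was 0.48 ± 0.27 (SE; edgeR adjusted p = 0.238), 0.23 without WT 3 and WT 4 and 0.21 with the length correction.

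Pappa2 (chr1:158711727-158980490, minus strand), the protease that cleaves IGFBP3 and IGFBP5, had the largest difference of the 10. WT 1 to WT 4 gave 6, 1, 9 and 8 counts, whereas cKO 1 to cKO 4 gave 529, 102, 320 and 194. In CPM this was 0.518, 0.115, 0.735 and 0.517 against 32.3, 11.1, 22.8 and 12.7. The lowest cKO library was far above the highest WT library, and cKO 1 was the highest of all. The mean rose from 0.471 ± 0.259 to 19.7 ± 9.85 CPM (SD, n = 4 each). The difference was 5.30 ± 0.49 in log2 units (SE; edgeR adjusted p = 8.88e-05). It was 5.84 without WT 3 and WT 4 and 5.59 with the length correction. The WT side rests on 24 counts in all.

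**Figure D2:**
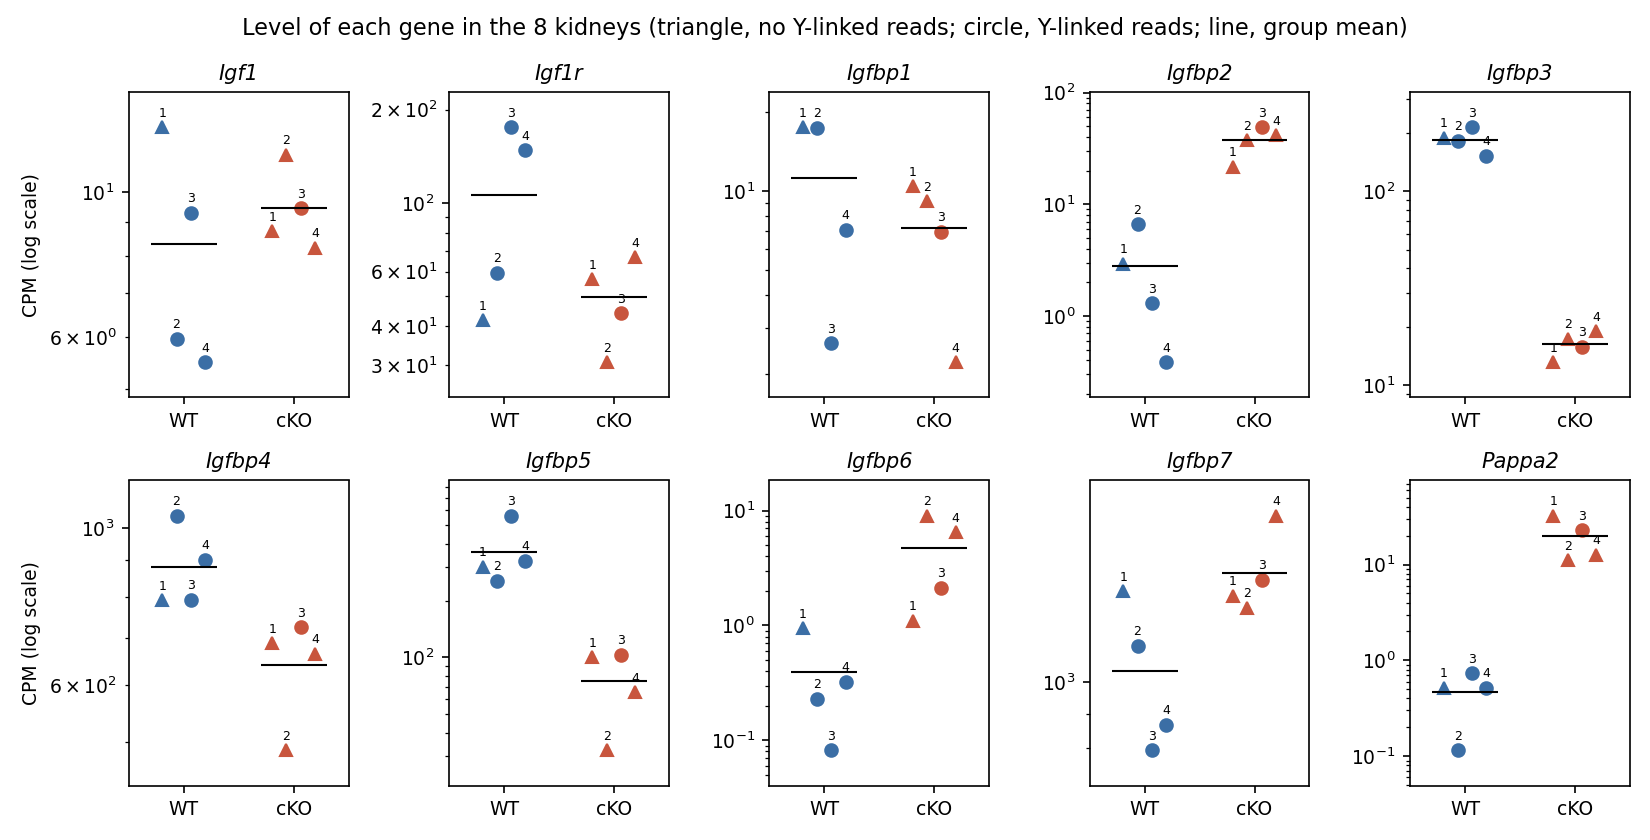
CPM on a log axis of each of the 10 genes in every library, with the replicate number at each point, lines at group means, triangles for libraries without Y-linked reads and circles for those with them. Igfbp3, Igfbp4 and Igfbp5 sit lower and Igfbp2, Igfbp6 and Pappa2 higher in all 4 cKO libraries, while Igf1, Igf1r, Igfbp1 and Igfbp7 overlap.

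**Figure D3:**
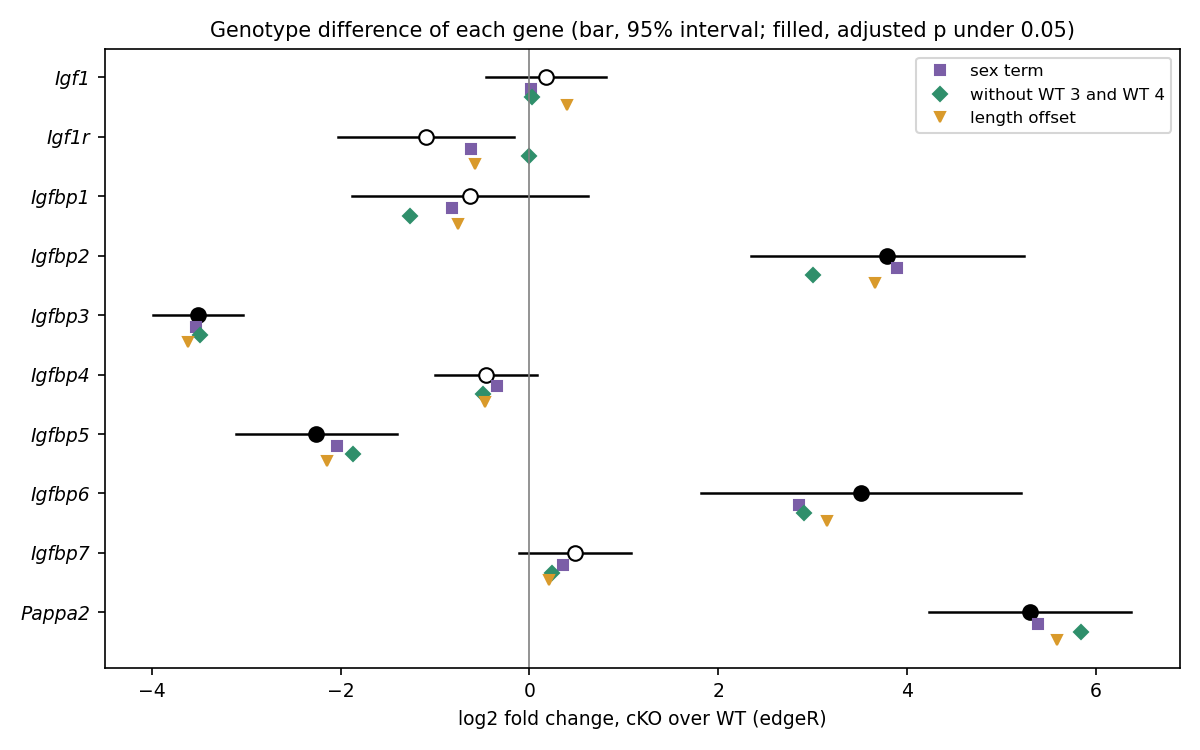
Log2 fold change of each gene, cKO over WT, in the fit of all 8 libraries (with its 95% interval, where filled points passed the test), with a sex term, without WT 3 and WT 4, and with the length correction (length offset). Igfbp3 lies between -3.62 and -3.50 and Pappa2 between 5.30 and 5.84 in these fits, while Igf1r moves from -1.10 to -0.01 without WT 3 and WT 4.

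Some of the binding protein genes form neighbouring pairs in the genome. Igfbp2 and Igfbp5 are neighbours on chromosome 1 that point towards each other, with 5457 bp and no protein-coding gene between them, and the former rose where the latter fell. Igfbp1 and Igfbp3 are placed the same way on chromosome 11, 3539 bp apart, and Igfbp3 fell while Igfbp1 did not pass the test and had a log2 fold change in the same direction. The 250 bases before the transcription start of the paired genes that changed are shown to let their promoters be compared. They come from RefSeq on GRCm38.p6 and are written 5′ to 3′ on the gene's strand, with GC boxes (GGGCGG) in capitals.
Igfbp2, chr1:72824230-72824479, plus strand: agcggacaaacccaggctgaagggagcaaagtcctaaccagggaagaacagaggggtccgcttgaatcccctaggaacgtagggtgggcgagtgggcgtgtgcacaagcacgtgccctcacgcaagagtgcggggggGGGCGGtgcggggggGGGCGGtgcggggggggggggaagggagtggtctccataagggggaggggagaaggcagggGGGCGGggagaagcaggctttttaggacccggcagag
Igfbp5, chr1:72874866-72875115, minus strand: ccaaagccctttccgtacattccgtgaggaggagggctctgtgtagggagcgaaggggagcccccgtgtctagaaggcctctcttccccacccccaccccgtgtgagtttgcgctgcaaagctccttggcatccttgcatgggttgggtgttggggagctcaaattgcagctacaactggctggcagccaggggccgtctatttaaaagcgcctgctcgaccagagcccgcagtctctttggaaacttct
Igfbp3, chr11:7213924-7214173, minus strand: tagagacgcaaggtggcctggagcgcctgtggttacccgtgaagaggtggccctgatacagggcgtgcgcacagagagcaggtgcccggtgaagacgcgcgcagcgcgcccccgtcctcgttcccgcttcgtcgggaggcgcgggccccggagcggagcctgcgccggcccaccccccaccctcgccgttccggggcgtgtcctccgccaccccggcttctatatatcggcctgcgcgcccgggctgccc

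The Igfbp2 window, taken at the nearest of 2 RefSeq starts, held 3 GC boxes, 113, 98 and 37 bases upstream at their far ends, and was 67.2% G or C with 14 CpG. The Igfbp5 window was 58.8% G or C with 10 CpG, and the Igfbp3 window was 73.2% with 32 CpG. The median over 32544 RefSeq promoters was 52.4% with 6 CpG. Motifs were searched on both strands in the promoters of all 10 members. The GC box was in 3 (Igf1r, Igfbp2 and Igfbp7) against 33.0% of all promoters. The letters CCAAT were in 3 (Igf1, Igfbp6 and Pappa2) against 33.8%, TATAAA in 2 (Igfbp4 and Igfbp6) against 12.3%, and the AP-1 motif TGANTCA in 1 (Igf1) against 6.73%. The FOXO motif TGTTTAC (3.17% of all), the ATF4 element TGATGNAA (3.4%) and the STAT motif TTCNNNGAA (7.04%) were in 0 of the 10. The windows of Igf1 and Pappa2 lie inside those genes as annotated, downstream of an earlier start, so their matches may not be in the promoter used. These are matches of letters in a window and say nothing about binding.

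Levels of different genes were compared as CPM per kb of annotated exon. In WT kidney Igfbp7 was highest at 859 ± 214 CPM per kb (SD, n = 4), followed by Igfbp4 at 199 ± 26.7, with no overlap between them. Igfbp5 (60.2 ± 22.9) and Igfbp3 (59.1 ± 8.13) came next and could not be ordered, each being the higher in 2 of 4 libraries. Igfbp1, Igf1r, Igfbp2 and Igf1 followed, between 7.33 ± 4.93 and 0.842 ± 0.334 CPM per kb, with neighbours overlapping. Igfbp6 (0.356 ± 0.343), which overlapped Igf1, and then Pappa2 (0.0458 ± 0.0251) had the lowest means. The lowest Igfbp6 library (WT 3, 0.0734 from 1 count) was barely above the highest Pappa2 library (0.0714), so their order rests on few counts. In cKO kidney Igfbp7 (1197 ± 174) and Igfbp4 (145 ± 24.1) were still first and second, again with no overlap, and Igfbp2 came next at 20.3 ± 6.24 CPM per kb. Igfbp5, Igfbp3, Igfbp1, Igfbp6, Igf1r, Pappa2 and Igf1 followed, each overlapping its neighbour. Pappa2, at 1.91 ± 0.957 CPM per kb, then had a higher mean than Igf1 at 0.955 ± 0.142.

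The summed level of the 7 binding protein transcripts was 1187 ± 206 CPM per kb in WT and 1389 ± 185 in cKO (SD, n = 4 each), with ranges of 1001 to 1429 and 1219 to 1647 that overlapped. Their make-up was described as the share of each in that sum. Igfbp7 made up 71.7% ± 5.52 in WT and 86.1% ± 1.83 in cKO, and Igfbp4 made up 17.1% ± 3.19 and 10.5% ± 1.62. By library, the Igfbp7 share was 78.7%, 72.7%, 65.6% and 69.7% in WT 1 to WT 4 and between 84.2% and 88.0% in cKO. The sum was 1429, 1287, 1001 and 1029 CPM per kb in WT 1 to WT 4. WT 3 and WT 4, in which short genes were low, were thus lowest in both. The share of Igfbp5 was 5.36% ± 2.80 in WT and 0.908% ± 0.422 in cKO, and that of Igfbp3 was 5.09% ± 1.19 and 0.376% ± 0.0554. Igfbp2 went the other way, with 0.121% ± 0.113 in WT and 1.46% ± 0.434 in cKO, as did Igfbp6 with 0.0278% ± 0.0229 and 0.308% ± 0.266. Igfbp1 held 0.579% ± 0.331 and 0.359% ± 0.200. Shares are of transcripts per length, not of protein. Neither the shares nor the sum were corrected for the length slope of the libraries, and its part in them was not tested.

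**Figure D4:**
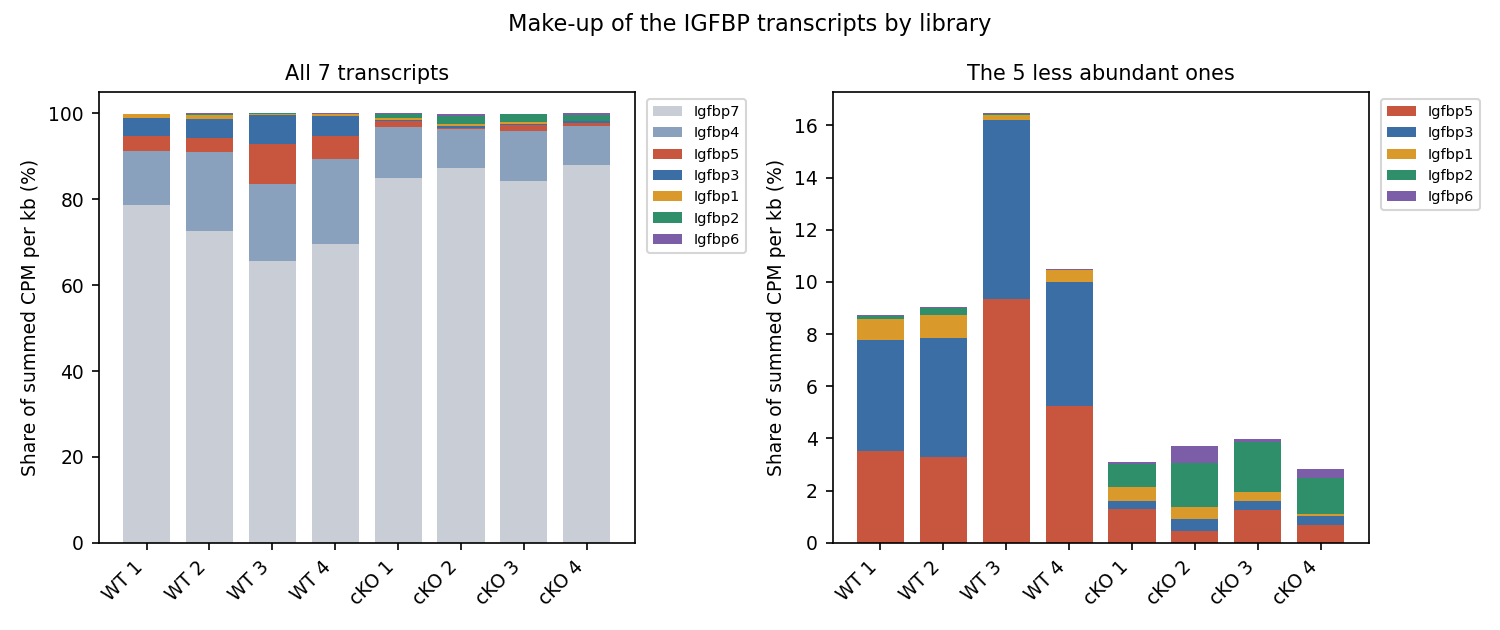
Share of each of Igfbp1 to Igfbp7 in their summed CPM per kb as stacked bars, 1 per library (vertical axis, percent), for all 7 on the left and without Igfbp7 and Igfbp4 on the right. Igfbp7 holds 71.7% on average in WT and 86.1% in cKO, while Igfbp3 drops from 5.09% to 0.376% and Igfbp2 climbs from 0.121% to 1.46%.

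Sex was a factor that the choice of genes did not use, and it was inferred from Y-linked reads. At equal genotype, 0.116% of all genes and 0 of the 10 members differed between libraries with and without Y reads (edgeR adjusted p 0.993 to 0.994 for the members; 556 of all genes and 1 member, Igfbp6, had an unadjusted p under 0.05). For Igfbp6 the log2 difference, with over without Y reads, was -1.63 ± 0.72 (SE; edgeR unadjusted p = 0.0433). With sex as a term in the model 6.80% of all genes passed for genotype, and the same 5 members passed in the same directions, from -3.54 for Igfbp3 to 5.39 for Pappa2. Among libraries without Y reads, 1 WT against 3 cKO, 0.868% of genes passed, Igfbp3 (-3.53) and Pappa2 (5.15) among them. Igfbp2 (3.51, edgeR adjusted p = 0.305), Igfbp5 (-2.19, adjusted p = 0.115) and Igfbp6 (2.52, adjusted p = 0.409) did not pass there. Among libraries with Y reads, 3 WT against 1 cKO, 3.47% passed, with Igfbp2 (4.23), Igfbp3 (-3.54) and Pappa2 (5.53) among them. Igfbp5 (-1.88, edgeR adjusted p = 0.201) and Igfbp6 (3.24, adjusted p = 0.134) did not pass there. In these comparisons the lone library is assumed to vary like the others. The difference between the 2 genotype effects passed for 0.0651% of all genes and for 0 of the 10 members (edgeR adjusted p = 1; 550 of all genes and 0 members had an unadjusted p under 0.05). Igf1r came nearest, with a log2 fold change of 0.30 without Y reads, an interaction of -1.84 ± 0.87 (SE) and an unadjusted p of 0.0581, and WT 3 and WT 4 both carry Y reads. At these numbers the intervals are wide: for Pappa2 the interaction ran from -2.28 to 3.04.

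Around these genes, 59 others of the IGF pathway were listed by role, and 55 passed the filter on low counts. Of the 55, 10 rose and 10 fell (of all genes, 9.57% and 7.14%, the background also for each list that follows), with a median log2 fold change of -0.12 against -0.01 over all genes tested. The lists were drawn up with earlier results of these data known, and up to 4 genes a list are named, those with the smallest adjusted p. Without cKO 4, 5 rose and 5 fell (5.82% and 2.43% of all genes). Without WT 3 and WT 4 (4.09% of all genes passed), 14 of the 19 named genes that passed no longer did. Those that still passed were Pappa, Esm1, Cyr61, Wisp1 and Socs3. With the length correction (19.3% of all genes passed), 12 rose and 10 fell, and 0 of the 19 named genes lost the call. None of the 4 other ligands and receptors passed. The most abundant, Igf2r, the receptor that clears IGF2, was at 37.4, 63.7, 120.9 and 113.8 CPM in WT 1 to WT 4 and at 55.6, 38.1, 47.2 and 47.5 CPM in cKO 1 to cKO 4 (log2 fold change -0.83, edgeR adjusted p = 0.103). As with Igf1r, WT 3 and WT 4 were the high libraries. The log2 fold change of Igf2r was -0.08 without them and -0.53 with the length correction. Igf2, named after its values were seen, was at 153 CPM in WT 1, at 14.2 CPM in cKO 4 and between 1.68 and 2.72 CPM in the other 6 libraries.

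A further list of 6 held Pappa, Stc1, Stc2, Htra1, Htra3 and Igfals, the gene of the acid-labile subunit. Of these 6, 3 rose and none fell. Pappa, which encodes PAPP-A, was at 3.71, 3.44, 4.25 and 2.78 CPM in WT 1 to WT 4 and at 22.5, 7.83, 10.2 and 22.8 CPM in cKO 1 to cKO 4 (log2 fold change 2.16, edgeR adjusted p = 0.00309). Every cKO library was above every WT library, as for Pappa2. Htra3, which encodes a secreted serine protease, rose from 1.09 ± 0.741 to 4.74 ± 0.774 CPM (SD, n = 4 each; log2 2.16, edgeR adjusted p = 0.00689). Stc2, whose product stanniocalcin-2 inhibits PAPP-A and PAPP-A2, rose from 1.72 ± 1.15 to 5.78 ± 0.845 CPM (SD, n = 4 each; log2 1.71, edgeR adjusted p = 0.0326). It lost that call in 9 of 22 alternatives, with an adjusted p of 0.111 with a sex term and of 0.0566 to 0.0871 without WT 3, WT 4 or any 1 cKO library.

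Of 9 relatives that share the IGF-binding protein domain, 7 were tested, 4 rose and 1 fell. Esm1, which encodes the endothelial proteoglycan endocan, fell from 19.2 ± 3.68 to 2.42 ± 1.11 CPM (SD, n = 4 each; log2 -3.01, edgeR adjusted p = 0.000221). The matricellular genes Cyr61 (18.0 ± 0.466 to 56.2 ± 16.7 CPM; edgeR adjusted p = 0.0012), Ctgf (59.0 ± 20.3 to 179 ± 129 CPM; adjusted p = 0.0271) and Wisp1 (log2 1.76, adjusted p = 0.0115) rose (SD, n = 4 each). The remaining one that rose, Nov, lay outside the naming rule (log2 2.27, adjusted p = 0.0347). For Ctgf, cKO 2 was at 367 CPM, and without it the log2 fold change went from 1.60 to 0.98 (edgeR adjusted p = 0.0566). The call of Ctgf was lost in 7 of 22 alternatives, also without WT 3 (adjusted p = 0.0831), WT 4 (0.073) or cKO 4 (0.0645). Among 2 tested genes for proteins that bind IGF2 mRNA, Igf2bp1 fell from 2.82 ± 1.75 to 0.446 ± 0.136 CPM (SD, n = 4 each; log2 -2.63, edgeR adjusted p = 0.00874), with WT 3 and WT 4 the highest. Without them its log2 fold change was -1.52 (adjusted p = 0.178).

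Growth hormone drives Igf1 through its receptor, JAK2 and STAT5. Of 7 tested genes of this axis, 1 rose and 3 fell. Ghr, the growth hormone receptor, was at 926, 1051, 969 and 909 CPM in WT 1 to WT 4 and at 496, 223, 422 and 295 CPM in cKO 1 to cKO 4 (log2 -1.42, edgeR adjusted p = 0.00799). The groups lay well apart, and without WT 3 and WT 4 the log2 fold change was -1.44 (adjusted p = 0.0534). Jak2 (log2 -0.64, adjusted p = 0.0245) and Stat5b (log2 -0.87, adjusted p = 0.0169) also fell in edgeR's test. Jak2 lost the call in 10 of 22 alternatives, among them leaving out WT 3, WT 4, cKO 1, cKO 3 or cKO 4 (adjusted p 0.0545 to 0.0806). Stat5b lost it in 7, among them leaving out WT 4 (adjusted p = 0.0542) or cKO 4 (0.0511). Socs3, a cytokine-induced inhibitor of JAK signalling, rose from 1.76 ± 0.389 to 18.2 ± 5.56 CPM (SD, n = 4 each; log2 3.37, edgeR adjusted p = 7.5e-05).

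Downstream of the receptor, 2 of 7 adapters fell and none rose. Irs1, a docking protein of the insulin and IGF1 receptors, fell from 4.84 ± 0.592 to 1.34 ± 1.07 CPM (SD, n = 4 each; log2 -1.81, edgeR adjusted p = 0.0196). Without cKO 1, its highest cKO library, this was -2.55, and the call was lost in 5 of 22 alternatives, among them leaving out cKO 3 (adjusted p = 0.0536) or cKO 4 (0.0688). Its relative Irs2 fell from 26.6 ± 17.8 to 7.68 ± 2.07 CPM (SD, n = 4 each; log2 -1.79, edgeR adjusted p = 0.0117), with WT 4 alone at 53.0 CPM and a log2 fold change of -1.20 without it. Among 12 PI3K, AKT and FOXO genes, 2 fell, the kinase genes Pik3cb (log2 -0.88, edgeR adjusted p = 0.0372) and Pdpk1 (log2 -0.79, adjusted p = 0.0389). Pik3cb lost its call in 10 and Pdpk1 in 12 of 22 alternatives. Both lost it with library size scaling, with a sex term, and without WT 3, WT 4, cKO 2, cKO 3 or cKO 4 (edgeR adjusted p 0.0661 to 0.114 for the single libraries). Of 10 genes of the mTOR branch, Eif4ebp1, the repressor of cap-dependent translation that mTOR inactivates, was between 8.82 and 19.8 CPM in WT and rose to between 26.2 and 59.5 CPM in cKO (log2 1.47, edgeR adjusted p = 0.0137; 0.0524 without cKO 4). Mtor was at 91.4, 173, 335 and 297 CPM in WT 1 to WT 4 and between 54.8 and 73.6 CPM in cKO (log2 -1.73, edgeR adjusted p = 0.0081). Its high libraries were again WT 3 and WT 4, and without them the log2 fold change was -0.95 (adjusted p = 0.0922).

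**Figure D5:**
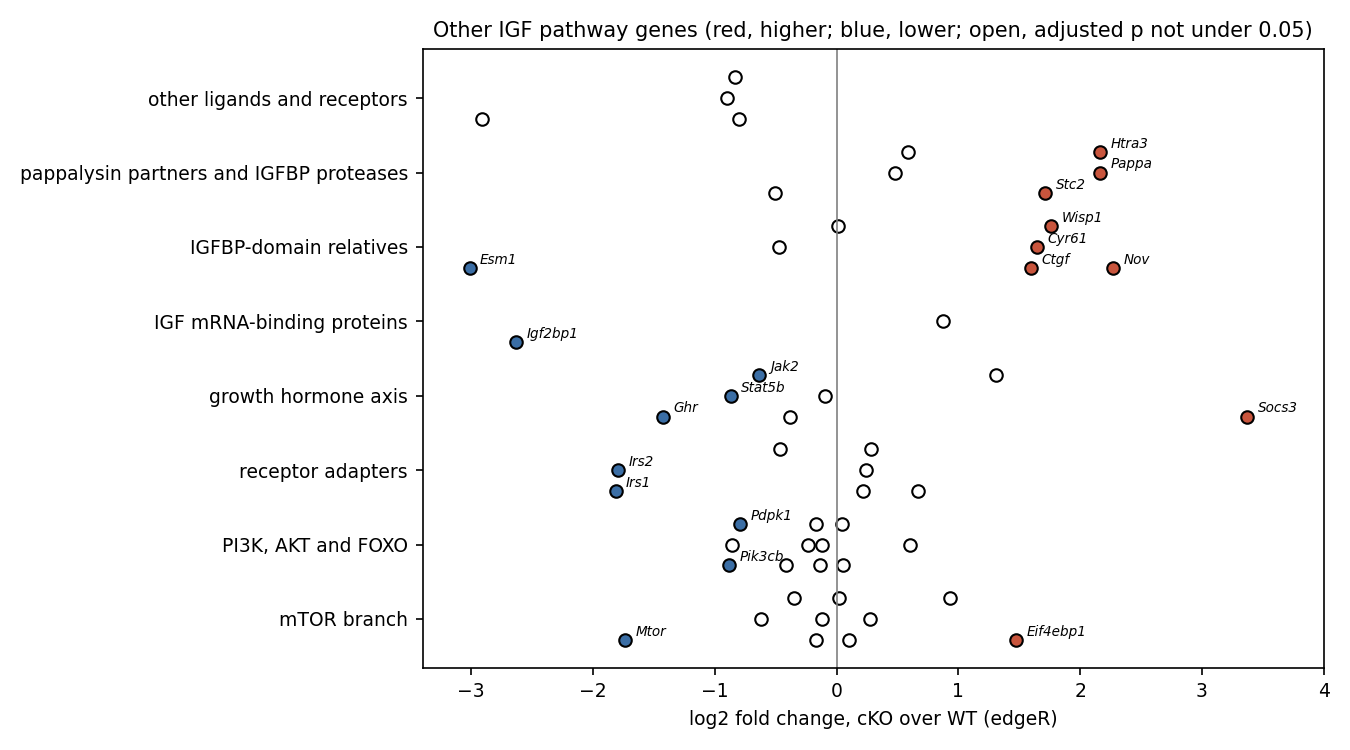
Log2 fold change, cKO over WT, of the tested pathway genes but 1, arranged by the 8 lists, with genes that passed the test filled (red, higher; blue, lower) and named. Socs3 (3.37) and Esm1 (-3.01) lie farthest out.

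Levels of cell type markers moved with genotype, and their part in the results above was not tested. Summed markers of thick ascending limb, where Pappa2 is known to be expressed, ran from 3199 to 5605 CPM in WT and from 1717 to 2825 CPM in cKO (of 6, Cldn16 rose and Ptger3 fell). Most of that sum was Umod (2043 to 3791 CPM in WT and 1075 to 1916 in cKO), which did not pass. Of the macula densa markers, Ptgs2 rose, Robo2 did not pass and Nos1 was too low to be tested. Summed endothelial markers were 333 to 472 CPM in WT and 250 to 369 CPM in cKO (3 of 9 fell, Kdr, Tek and Ehd3). Pecam1 (mean 47.0 CPM in WT and 57.3 in cKO) and Egfl7 (31.8 and 41.4) were higher on average and did not pass. Cdh5 was near level (18.6 and 17.5), and Emcn, Flt1 and Plvap had lower means, also without passing. Fibroblast markers ran from 98.8 to 179 CPM in WT and from 414 to 663 CPM in cKO (6 of 7 rose, Pdgfra fell). Pericyte and smooth muscle markers ran from 194 to 278 and from 430 to 909 CPM (5 of 7 rose). Macrophage markers ran from 104 to 204 and from 401 to 733 CPM (7 of 8 rose). Of these, Myh11 (mean 19.5 CPM in WT and 15.4 in cKO), Rgs5 (60.7 and 41.4) and Csf1r (53.7 and 34.5) were lower on average and did not pass. Collecting duct markers were 455 to 753 CPM in WT and 1161 to 3053 CPM in cKO (4 of 5 tested rose), urothelial markers 9.47 to 33.8 and 62.1 to 104 CPM (4 of 4 rose), and tubular injury markers 7.89 to 19.2 and 514 to 1848 CPM (5 of 5 rose). Proximal tubule markers, abundant in both groups, were 6944 to 10040 CPM in WT and 1859 to 5579 CPM in cKO (4 of 8 fell), and 3 of 4 distal convoluted tubule markers fell (648 to 1332 and 403 to 545 CPM). Podocyte markers (184 to 350 and 113 to 275 CPM; 0 of 6) and hepatocyte markers (238 to 408 and 246 to 1593 CPM; 0 of 3 tested) did not pass. The hepatocyte sum was nearly all Ttr (223 to 399 CPM in WT and 244 to 1574 in cKO), and Alb reached at most 18.9 CPM in WT and 18.0 in cKO. No listed marker was at 0 in all libraries.

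The genes whose log2 CPM over the 8 libraries was most like that of Pappa2, by Pearson's r among 12655 genes, were the cell division genes Cdca2 (r = 0.981) and Cdc20 (r = 0.981), and the sulfotransferase gene Sult4a1 (r = 0.979). Cdc20 was at 1.53 ± 0.183 CPM in WT and 7.13 ± 0.495 CPM in cKO (SD, n = 4 each). Most like Igfbp3 were Corin (r = 0.988), a serine protease that activates natriuretic peptide, Cpm (r = 0.987), a membrane carboxypeptidase, and Tnn (r = 0.987), a tenascin of the matrix. Corin was at 4.95 ± 1.94 CPM in WT and 0.153 ± 0.0438 CPM in cKO (SD, n = 4 each). These values share the 8 libraries and the genotype difference, and they are a description without a test.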

How the data were processed

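Whole kidneys were flash frozen and RNA was sequenced as stranded polyadenylated libraries, per the labels' protocols. Per the submitters' processing notes, STAR, RSEM and mm10 were used; versions, annotation and strandedness of counting are not stated there. The authors deposited RSEM expected counts per gene and library, which were rounded to whole numbers. Genes were tested with edgeR 4.0.16 (robust quasi-likelihood, TMM scaling, filterByExpr) in R 4.3.3, with Benjamini-Hochberg adjustment over 13829 genes and a threshold of 0.05. Standard errors and 95% intervals were derived from the quasi-likelihood F statistic. The code was tested on simulated counts in which 97 genes were changed 2-fold and 99 were changed 4-fold. Of these, 28.9% and 83.8% passed, and 9 of the 120 genes that passed had not been changed. Far fewer genes were changed there than passed in these data, so these shares may not carry over. Total counts of 9454830 to 15838026 per library limit precision for Igfbp6 and Pappa2 in WT. Exon length came from GENCODE vM21 (GRCm38), with overlapping exons counted once. Replicate numbers were not taken as pairs, since correlations of same-numbered libraries' deviations were -0.078, 0.281, 0.116 and -0.002.

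The values of 1 listed pathway gene are not reported here, though counts over the lists include it. The members and lists were chosen with earlier results of these data known. Named were all members, up to 4 passing genes with the smallest adjusted p per pathway list (or its most abundant gene where none passed), and the 3 genes most like the members with the largest rise and fall, among genes of at least 1 CPM on average. Alternatives were other scalings, filters, DESeq2 1.42.0, limma-voom (limma 3.58.1), a replicate block, age and sex terms, a stricter threshold and left-out libraries. WT 4 and cKO 4, whose header numbers lie apart from those of the other libraries, were also left out together. Leaving out WT 3 and WT 4 together and the length correction were chosen after seeing the data.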

Additional observations from a re-analysis of the deposited data

Results flagged for a closer look

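In groups of 4, a library was singled out where its gap to the nearest other library took up more of the group's range than Dixon's 95% critical value allows. This held for 4 of 60 combinations of a named gene and a group, where chance gives about 1 in 20. None of the 10 members was among them. Igf2 is outside that count, since it was chosen after its values were seen. It stood out in WT 1, at 153 CPM against 1.68 to 1.96 in the other WT libraries, and in cKO 4, at 14.2 CPM against 1.95 to 2.72. Irs2 stood out in WT 4, at 53.0 CPM against at most 21.1, and in cKO 4, at 10.8 CPM against 6.42 to 6.90. Irs1 stood out in cKO 1, at 2.93 CPM against 0.653 to 0.925. Ctgf stood out in WT 2, at 89.2 CPM against 46.5 to 51.4.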

How the results depend on the processing

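Over 22 alternatives (all but the stricter threshold and the comparisons within a sex), Igfbp2, Igfbp3, Igfbp5 and Pappa2 kept their direction and stayed under an adjusted p of 0.05, with log2 fold changes of 3.01 to 4.64, -3.70 to -3.35, -2.45 to -1.87 and 4.96 to 5.84. Leaving out 1 replicate at a time gave 3 members higher and 2 to 3 lower. With the replicate block 3 were higher and 2 lower; the block changed no call of a member and, of the named pathway genes, ended that of Pdpk1 (adjusted p = 0.0647). Within libraries without Y reads 1 was higher and 1 lower, and within those with them 2 were higher and 1 lower. Igf1 reversed without the 2.5-month pair (-0.05) and without Y reads (-0.42), as did Igf1r (0.30) and Igf2r (0.33) without Y reads; none of the 3 passed in the full set.

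The number of pathway genes that passed moved with the libraries and settings, as did that of all genes, given further on. The 10 that rose became 5 with a sex term, 4 at an adjusted p under 0.01, 4 without WT 4 and cKO 4, 4 without WT 3 and WT 4, and 1 within either sex, with 5 to 12 when 1 replicate was left out. The 10 that fell became 6 with library size scaling, 3 with a sex term, 4 at an adjusted p under 0.01, 6 without the 2.5-month pair, 2 without WT 4 and cKO 4, 1 without WT 3 and WT 4, 2 without and 1 with Y reads, and 5 to 14 when 1 replicate was left out. The count that rose was 6 without WT 3 or without WT 4 and 5 without cKO 4, and the count that fell was 6 without WT 4 or without cKO 3 and 5 without cKO 4. The cause was not tested. Over all genes, 1323 higher and 987 lower became 715 and 226 with a sex term, 427 and 160 without WT 3 and WT 4, 417 and 151 without WT 4 and cKO 4, 971 and 426 without the 2.5-month pair, 589 and 209 at the stricter threshold, and 62 and 58 without or 413 and 67 with Y reads. Leaving out 1 replicate gave 815 to 1626 higher and 340 to 1467 lower, the lowest without cKO 4. With library size scaling the all-gene median moved to 0.145 (log2), with 1866 higher and 550 lower, upper quartile scaling 1458 and 816, and DESeq2 1717 and 1448. Depth limits Igfbp6 (19 counts) and Pappa2 (24 counts) over the 4 WT libraries.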
